A study of Mus musculus with 12 samples.

Results

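The baseline expression of pubertal mouse mammary epithelial cells was described from the 6 control arrays of a 12-array series. The control group was chosen by genotype label alone, and held females of the inbred strain FVB/N that carried the MMTV-rtTA transgene and no other. This transgene drives the reverse tetracycline transactivator from the mouse mammary tumour virus promoter, which is active mainly in mammary epithelium. All mice of the series, controls included, were 5 weeks old when doxycycline was added to their chow at 2 g/kg. After 7 days on it, at an age of 6 weeks, their mammary epithelial cells were isolated. The values therefore describe doxycycline-fed, rtTA-expressing glands and not untreated wild-type glands. The other 6 arrays, from mice that also carried an inducible p190B transgene, were not used, and no comparison between genotypes was made. Each array is labelled as a biological replicate, and the labels do not say whether a replicate was 1 mouse or a pool. The spread over arrays is therefore a spread between cell preparations.

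At puberty the mammary gland grows as a branching tree of ducts into a fatty stroma. The ducts have an inner luminal layer, marked by keratins 8 and 18, and an outer basal or myoepithelial layer, marked by keratin 14 and smooth muscle actin. The luminal layer holds hormone-sensing cells, which carry oestrogen and progesterone receptors, and progenitors that can make milk proteins later in life. Milk protein genes are best known from pregnancy and lactation, when prolactin acts on them through the transcription factor STAT5. Primary preparations of these cells are enriched and not pure, and stroma, vessels and blood-derived cells can accompany the epithelium.

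Levels were taken as log2(intensity + 16). Each gene took its level from the probe set with the highest mean over the 6 arrays, called its brightest. Of 45037 probe sets other than array controls, 34945 carried 1 gene symbol, and these read 18193 genes. A background level was set at the 95th percentile of Y-linked genes and genes of unrelated organs, which came to 6.94 on the log2 scale or 107 intensity units. By this measure 12580 genes (69.1%) lay at or above background. The array medians ran from 187.6 to 208.0 intensity units, and the 15 pairs of arrays correlated between 0.974 and 0.985 across genes, which are not independent replicates. Xist, the X-inactivation RNA of female cells, had a level of 14.62 ± 0.12 (SD, n = 6). All 3 measured Y-linked genes were below the background level, which they helped to set, at means from 4.57 to 5.65. Of the 29 measured background genes, 2 were not below this level, a number fixed by the choice of percentile. They were the fibrinogen gene Fgb, at 13.45 ± 0.47 with intensities from 7507 to 16935, and the prothrombin gene F2, at 7.05 ± 0.35. Because probe sets differ in how strongly they bind, an order of genes is an order of array signal and not of transcript number. Among the 9010 genes with several probe sets, the brightest and the dimmest differed by a median of 2.14 log2 units.

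The 5 marker genes of the cells were all bright, so the data did not go against the label of the samples. They give no measure of purity, because some stromal genes were as bright, as given below. Krt18, a luminal keratin, ran from 40812 to 50335 intensity units with a median of 43837, a level of 15.45 ± 0.12 (SD, n = 6). Its partner Krt8 ran from 38760 to 47661 with a median of 41489, a level of 15.36 ± 0.11. Csn3, which encodes κ-casein, ran from 41687 to 51248 with a median of 43061, a level of 15.44 ± 0.11. These 3 luminal genes held ranks 17, 28 and 18 of 18193. Acta2, the smooth muscle actin of myoepithelial cells, ran from 33415 to 40044 with a median of 35562, a level of 15.15 ± 0.11. Its signal came from 1 probe set, and the other 2 probe sets for the gene had means of 8.18 and 7.01. Krt14, the basal keratin, had a wider spread, from 8342 to 14981 with a median of 10632, a level of 13.40 ± 0.33. All 5 markers were highest on the array of replicate 2. That array was also the highest for 140 of the 200 brightest genes, against 39 of 200 after quantile normalisation, when it still had the highest value of 3 of the 5 markers.

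**Figure D1:**
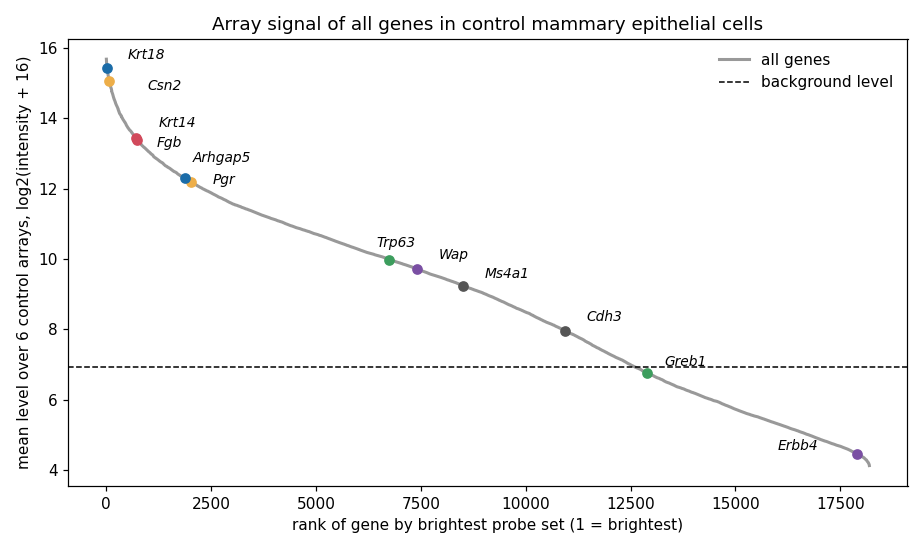
All 18193 genes are ordered by the mean level of their brightest probe set (x axis, rank; y axis, log2(intensity + 16), mean of 6 control arrays), with named genes as coloured points and the background level of 6.94 as a dashed line. Krt18 and Csn2 lie at the bright end, Krt14 and Fgb lie together near 13.4, and Greb1 and Erbb4 lie below the background level.

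Of the 30 brightest genes, 19 encoded ribosomal proteins, led by Rps29 with a median of 51835 intensity units. Hspa8, a constitutive heat shock chaperone, was at rank 7, Tmsb4x, which encodes an actin-binding thymosin, at rank 8, and Actg1, a cytoplasmic actin, at rank 9. The translation elongation factor gene Eef1a1 was at rank 20 and the respiratory chain gene Uqcrb at rank 26. Besides Krt18, Krt8 and Csn3, the 30 held 3 genes that are well known from stroma. Gsn, encoding the actin-severing protein gelsolin, was at rank 3 with a level of 15.60 ± 0.11. Fabp4, a fatty acid carrier of adipocytes and vessel walls, was at rank 6 with 15.53 ± 0.10. Its other probe sets spread more between arrays, at 14.57 ± 0.23, 11.29 ± 0.53 and 11.22 ± 0.48. Col3a1, a fibrillar collagen, was at rank 21 with 15.41 ± 0.16. The 30 genes spanned only 15.33 to 15.69 on the log2 scale, so neighbouring ranks differed by less than the spread between arrays. They held 3.66% of the summed signal of all genes, and the brightest 1000 held 46.5%. Many of these genes have close relatives or pseudogenes, and 13 of the 30 were read by probe sets whose IDs mark possible cross-hybridisation (_x_at) or binding to several transcripts (_s_at). Without such probe sets 18 of the 30 remained among the brightest 30.

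The luminal epithelial list was bright throughout. All 16 of its genes were above background and 12 were among the 1819 brightest, the top 10% of genes. Its mean was 13.39 ± 0.20 (SD, n = 6), against a median of 8.97 over all genes. Cd24a, a surface glycoprotein used to sort mammary epithelium, was its brightest member outside the keratins, at 15.19 ± 0.08. Epcam, an epithelial adhesion molecule, had 14.66 ± 0.16, and Cdh1, which encodes E-cadherin, had 13.75 ± 0.27. Cldn4, a tight junction claudin, varied more, with 11619, 12043 and 13488 intensity units on replicates 4, 5 and 1 and 21371 to 24250 on replicates 2, 3 and 6. The dimmest member was Muc1, an apical mucin, at 10.46 ± 0.41. Replicate 4 had the lowest value of 12 of the 16 genes, and its list mean of 13.10 compared with 13.64 on replicate 6. The means of the fibroblast (13.81), endothelial (12.24), T and NK cell (9.99), B and plasma cell (9.51), mast cell (9.07) and Schwann cell (12.27) lists were each highest on replicate 4. Of the 11 fibroblast genes, however, 2 were highest there and 6 on replicate 2. Without Thy1, its most variable member, the fibroblast list had 13.96 on replicate 4, below 14.04 on replicate 2 and 13.99 on replicate 3. The part of these lists in the luminal values was not tested. In cells taken from bulk tissue, fewer cells of a type and less RNA per cell cannot be told apart.

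The luminal progenitor list was also bright. All 11 measured genes were above background and 8 were among the 1819 brightest, with a list mean of 13.43 ± 0.17. Wfdc18, a small secreted protein of the whey acidic protein family, had 15.14 ± 0.12, and Plet1, a surface protein, had 15.09 ± 0.17. Elf5, the transcription factor of the alveolar fate, had intensities from 9562 to 14323 with a median of 11072, a level of 13.48 ± 0.21. Kit, the stem cell factor receptor used to isolate luminal progenitors, was at 11.45 ± 0.24. The most variable member was Ltf, encoding the iron-binding milk protein lactoferrin, which read 17323 on replicate 2 and 4894 to 9616 on the others. Itga2, an integrin subunit, was the dimmest at 7.43 ± 0.12. Trf is not named here.

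The basal and myoepithelial list was also present in full. All 15 genes were above background, 6 were among the 1819 brightest, and the list mean was 11.71 ± 0.13. Acta2, Tagln and Krt14 were its brightest members, and Tagln, an actin-binding protein of smooth muscle, had 14.14 ± 0.07. Smooth muscle genes are not particular to the basal layer, and all 7 genes of the pericyte list were above background too. The part of vessel wall cells in the Acta2 and Tagln values was not tested. Krt5, the partner of Krt14, was at 11.53 ± 0.26. Trp63, the p63 transcription factor of basal cells, was at 9.99 ± 0.16, with intensities from 849 to 1181 and a median of 1004. Cdh3, encoding P-cadherin, was the dimmest and most variable, with 48.9 intensity units on replicate 4 and 240.6 to 428.4 on the others. The list mean on replicate 4 was 11.47, against 11.71 to 11.83 on the others, and without Cdh3 it was 11.86 against 11.92 to 12.09. The list mean was 11.01 when genes were read by their median probe set and 11.22 without _x_at and _s_at probe sets. Krt14 is also a keratin of the epidermis, and all 3 of its probe sets were highest on replicate 2, where the skin keratinocyte list was highest too. The part of skin RNA in the Krt14 values was not tested.

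Milk protein genes were among the brightest genes of these pubertal cells, and 4 of them carry close to their start a sequence of the form bound by STAT5. Of the 14 milk protein and milk fat genes, 13 were above background and 10 were among the 1819 brightest. RefSeq promoter windows were available for 10 of the 14 genes, each covering 250 bases before and 50 after the transcription start in the mouse build GRCm38.p6. The motif TTCNNNGAA, which reads the same on both strands, was searched in all of them. It was present in 4 of the 10 windows, those of Csn1s1, Csn2, Csn1s2a and Glycam1, and in 8.30% of 32851 windows of the same length. In Csn1s2a the match lay 20 bases after the start. The 250 bases before the start of the other 3 genes are shown, because these genes differed between arrays as described next. The motif stands in capitals, and the sequences run 5′ to 3′ on the gene's strand. They lie at chr5:87665958-87666207 on the plus strand (Csn1s1), chr5:87699426-87699675 on the minus strand (Csn2) and chr15:103565082-103565331 on the minus strand (Glycam1).
Csn1s1: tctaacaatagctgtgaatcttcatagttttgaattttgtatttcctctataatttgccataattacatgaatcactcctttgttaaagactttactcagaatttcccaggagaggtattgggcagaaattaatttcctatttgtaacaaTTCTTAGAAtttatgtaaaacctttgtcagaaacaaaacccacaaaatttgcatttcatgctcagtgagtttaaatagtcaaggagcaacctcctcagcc
Csn2: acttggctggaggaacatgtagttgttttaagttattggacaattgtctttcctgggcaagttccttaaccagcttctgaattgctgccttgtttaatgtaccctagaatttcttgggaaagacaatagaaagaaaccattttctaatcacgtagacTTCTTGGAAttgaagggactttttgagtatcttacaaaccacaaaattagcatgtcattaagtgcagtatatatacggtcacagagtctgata
Glycam1: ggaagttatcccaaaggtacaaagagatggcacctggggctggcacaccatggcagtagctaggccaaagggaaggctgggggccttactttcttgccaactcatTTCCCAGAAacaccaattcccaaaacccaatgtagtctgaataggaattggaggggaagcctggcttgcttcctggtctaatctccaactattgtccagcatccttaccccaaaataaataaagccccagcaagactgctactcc
The match began 100 bases before the start in Csn1s1, 93 in Csn2 and 145 in Glycam1. A match of letters is a description and no measure of binding, and no binding was measured here.

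Csn1s1, Csn2 and Csn1s2a fell into separate levels between the arrays. Csn1s1, an α-casein, read 23944 on replicate 4 and 22993 on replicate 5, against 37653 to 46186 on the other 4 arrays, with a mean level of 15.06 ± 0.43 (SD, n = 6). Csn2, β-casein, read 24847 and 24975 on the same arrays against 37042 to 44645, with 15.07 ± 0.37. Csn1s2a, another α-casein, read 26810 and 24615 against 39283 to 44424, with 15.10 ± 0.36. For each of these 3 genes, replicates 4 and 5 lay below all other arrays, also after quantile normalisation. Wap, the whey acidic protein gene, had a level of 9.72 ± 1.04. It was also lowest on replicates 4 and 5, at 336.3 and 418.9 intensity units, and reached 2575 on replicate 1. The fold between its highest and lowest array was 7.66, against 2.01 for Csn1s1.

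Other milk genes followed other orders of the arrays. Glycam1, a mucin-like glycoprotein of milk and of lymph node vessels, read 15429 on replicate 5 and 33234 to 42218 on the others, a level of 14.97 ± 0.53. It was highest on replicates 3 and 4. The T and NK cell and the B and plasma cell lists were also highest on these arrays and lowest on replicate 5. The part of lymph node tissue in the Glycam1 values was not tested. Lalba, α-lactalbumin of the lactose synthase, ran from 8767 on replicate 3 to 19191 on replicate 6, a level of 13.72 ± 0.44. Btn1a1, butyrophilin of the milk fat globule membrane, ran from 5818 on replicate 3 to 17884 on replicate 6, a level of 13.38 ± 0.63. Plin2, a lipid droplet coat protein, was lowest on replicate 5 at 9748 and reached 17380 on replicate 2. Csn1s2b was the dimmest member, at 6.88 ± 0.68, just below background. On replicates 4 to 6 it read 64.6, 63.4 and 68.6 intensity units, against 116.9 to 244.4 on the others. The brightest probe set of Csn3 spanned the narrow range given above, with replicates 4 and 5 inside it. Its second probe set, at 11.31 ± 0.51, ran from 1352 on replicate 3 to 3743 on replicate 6, so the narrow range held for 1 of its 2 probe sets.

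**Figure D2:**
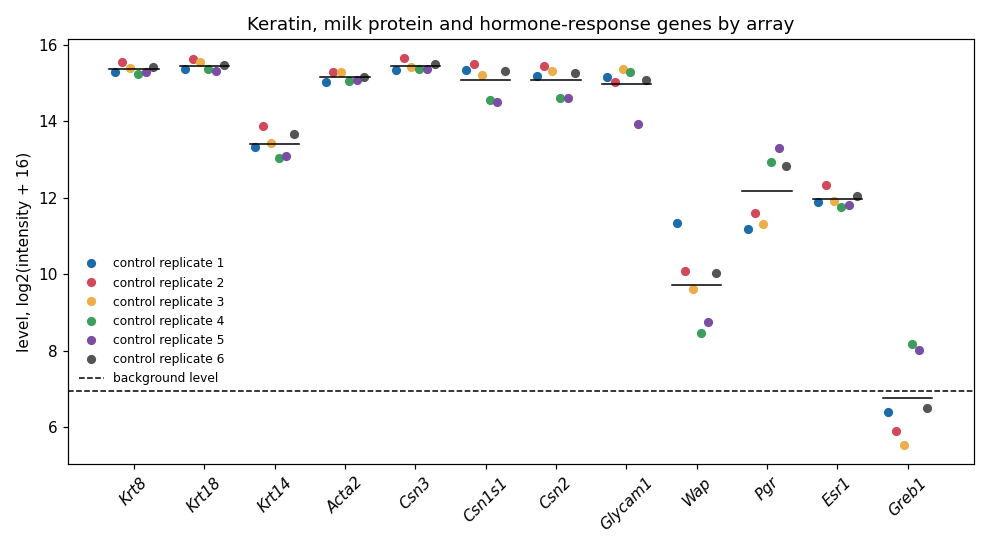
Each point is 1 control array (y axis, log2(intensity + 16)) for 12 keratin, milk protein and hormone-response genes, horizontal lines are means of 6 arrays, and the dashed line is the background level. Csn1s1 and Csn2 are lower on replicates 4 and 5 (22993 to 24975 intensity units) than on the other arrays, while Pgr is higher on replicates 4, 5 and 6 and Greb1 is above background on replicates 4 and 5 alone.

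Genes of the hormone-sensing luminal cells differed from each other in spread. Of 9 measured genes, 8 were above background and 3 were among the 1819 brightest. Cited1, a transcriptional co-regulator of hormone-sensing cells, had 13.72 ± 0.25, and Foxa1, the pioneer factor of the oestrogen receptor, had 13.05 ± 0.17. Esr1, encoding oestrogen receptor α, ran from 3431 to 5175 intensity units with a median of 3816, a level of 11.96 ± 0.21. Pgr, encoding the progesterone receptor and a known target of oestrogen, read 2323, 3076 and 2527 on replicates 1, 2 and 3 and 7764, 10001 and 7212 on replicates 4, 5 and 6. Its level was 12.19 ± 0.92, and the arrays fell into 3 low and 3 high values with none between 3076 and 7212. The other 2 Pgr probe sets were dim, with means of 7.72 and 6.72, and 1 of them was highest on replicate 5 and the other on replicate 2. Greb1, another oestrogen-responsive gene, read 274.6 on replicate 4 and 246.4 on replicate 5, and was below the background level on the other arrays, at 30.7 to 74.9. Its other 3 probe sets had means below background, and 1 of them was highest on replicate 4 and 2 on replicate 6. Tnfsf11, the ligand RANKL that passes the progesterone signal to neighbouring cells, read 561.9 on replicate 4 and 46.2 on replicate 5, with 78.5 to 218.3 on the rest. T cells also make RANKL, and replicates 4 and 5 were the arrays with the highest and the lowest T and NK cell list. The part of T cells in the Tnfsf11 values was not tested. Prlr, Areg, Ly6a and Calca are not named here.

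All 24 transcription factors known from the mammary gland were above background and 6 were among the 1819 brightest, with a list mean of 11.65 ± 0.15. Cebpb, needed for ductal growth and alveolar cell fate, led at 14.38 ± 0.16, followed by Elf5 and by Klf5, an epithelial zinc-finger factor, at 13.35 ± 0.22. Gata3, the factor of luminal differentiation, was at 11.15 ± 0.24. Bcl11a was the dimmest, at 7.60 ± 0.34.

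More receptors than ligands were among the brightest genes. Of 19 measured growth factor and hormone receptors, 18 were above background and 6 were among the 1819 brightest. The type II TGF-β receptor Tgfbr2 had 13.44 ± 0.10, the collagen receptor Ddr1 13.23 ± 0.29 and the co-receptor Tgfbr3 13.06 ± 0.11. Egfr, the receptor through which ductal growth is driven, was at 10.95 ± 0.17 and Erbb2 at 9.14 ± 0.30. Erbb4, a neuregulin receptor that acts with STAT5 in lactation, was the dimmest, with 3.2 to 18.5 intensity units on all 6 arrays, below background. Of 22 measured paracrine ligands, 20 were above background and 1 was among the 1819 brightest. That gene was Hbegf, an EGF receptor ligand, at 13.55 ± 0.13. The Notch ligand Jag1 had 11.93 ± 0.09 and Tgfb3 had 11.80 ± 0.20. Egf itself was below background, with 45.3 to 96.2 intensity units.

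Arhgap5, which encodes the GTPase-activating protein p190B, was read in these controls as the endogenous gene. Its brightest probe set ran from 4573 to 5601 intensity units with a median of 5099, a level of 12.30 ± 0.12, and its other 3 probe sets had means of 10.05, 9.99 and 8.93.

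Adhesion genes were present on all arrays. All 20 measured cell junction genes were above background and 12 were among the 1819 brightest. Ctnnb1, β-catenin of the adherens junction, had 14.89 ± 0.07, and the gap junction gene Gja1 had 14.67 ± 0.08. Replicate 4 had the lowest value of 14 of the 20, and its list mean of 12.18 compared with 12.49 to 12.72 on the others. This was the array on which the endothelial and lymphocyte lists were highest, and the fibroblast list only with Thy1, as given for the luminal list. The part of these lists in the junction values was not tested either. The 13 integrins were all above background, and their mean was steady over the arrays as deposited, 10.51 ± 0.01, although single members spread more. Its SD was 0.06 with equal array medians and 0.02 after quantile normalisation, where the ribosomal protein list had a smaller one, and 0.008 without replicate 2. Itga6, a laminin receptor subunit of the basal layer, led with 13.59 ± 0.14, while Itga1 ran from 568.9 to 1008 intensity units with a level of 9.61 ± 0.32. The 13 measured basement membrane genes were led by the collagen IV chain Col4a1, which read 16672 on replicate 6 and 21513 to 29319 on the others. Lamb1, a laminin chain, read 4400 on replicate 6 and 6668 to 8294 on the others. Replicate 6 had the lowest value of 8 of the 13, with a list mean of 11.36 against 11.65 to 11.73.

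Respiratory chain genes were bright and steady. All 15 measured respiratory chain genes were among the 1819 brightest, with a list mean of 14.03 ± 0.03, and Cox7a2 and Atp5b were among the 5 steadiest of the 200 brightest genes, with SDs of 0.04 and 0.03. The steadiest of these was Rps20, a ribosomal protein, whose intensities ran from 45008 to 47167 with a level of 15.48 ± 0.03. Of 10 measured glycolysis genes 7 were among the 1819 brightest. Ldha, lactate dehydrogenase, had 14.52 ± 0.09, and the most variable member was the hexokinase gene Hk2, highest on replicate 2 at 7233 and at 3738 to 5181 on the others. All 12 measured lipid and cholesterol synthesis genes were above background and 5 were among the 1819 brightest, led by the desaturase gene Scd1 at 14.21 ± 0.20. The median SD of these 12 genes was 0.23. Their mean was 12.27 on replicate 5 and 11.99 to 12.06 on the others. The adipocyte list was also highest on replicate 5, at 10.41 against 9.30 to 10.05. The part of adipocytes in the lipid synthesis values was not tested.

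Immediate early and stress genes were uniformly bright. All 20 were among the 1819 brightest, with a list mean of 14.32 ± 0.08 and members from Egr1, at 15.12 ± 0.13, and Fos, at 15.02 ± 0.11, down to Myc, at 13.12 ± 0.19. Egr1 and Fos encode transcription factors that are induced within minutes of stimulation, wounding or tissue dissociation. No sample of intact gland was analysed here, so the level before cell isolation is unknown. Of the 14 unfolded protein response genes, 9 were among the 1819 brightest, led by the chaperone gene Hspa5 at 14.94 ± 0.17, with Trib3 the dimmest at 8.48 ± 0.14.

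Cell cycle genes were above background in all 19 measured cases, and the arrays differed. The list mean was 9.52 on replicate 2, 9.84 on replicate 6 and 10.38 to 10.54 on the other 4 arrays. Replicate 2 had the lowest value of 17 of the 19 genes, also after quantile normalisation. Mki67, the Ki-67 proliferation marker, read 1121 and 1400 on replicates 2 and 6 and 2130 to 2337 on the others. Top2a, the topoisomerase of dividing cells, read 1331 and 1449 on the same arrays and 2488 to 3010 on the others. Pcna, a replication clamp, was steady, from 21848 to 25489 with a level of 14.54 ± 0.08. The cell cycle list does not say which cells divided, and the skin, lymphocyte and stromal lists given next also differed between these arrays. Their part in the cell cycle values was not tested.

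**Figure D3:**
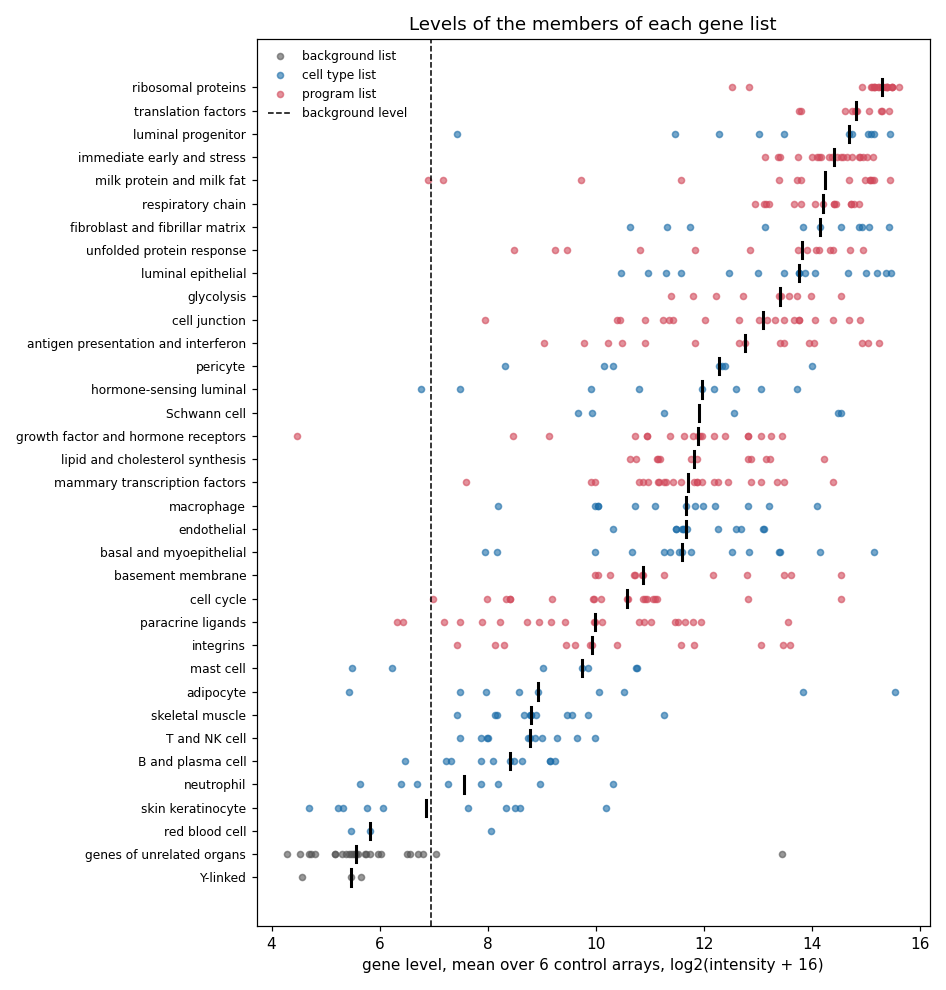
Each point is 1 measured gene of a list (x axis, mean level over 6 control arrays, log2(intensity + 16)), black bars are the medians of the lists, and the dashed line is the background level. Lists of ribosomal proteins, translation and luminal progenitors lie to the right, lymphocyte and skin lists to the left, and Y-linked genes and most genes of unrelated organs lie below the background level.

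Genes of stromal cells were clearly present in these epithelial preparations. All 11 measured fibroblast and fibrillar matrix genes were above background and 8 were among the 1819 brightest, with a list mean of 13.60 ± 0.26. The luminal and basal list means were 13.39 and 11.71, although means of different lists rest on different probe sets. Dcn, the matrix proteoglycan decorin, ran from 29094 to 39059 intensity units with a median of 34211, and Postn, periostin, from 24169 to 37954 with a median of 30761. All 11 genes were lowest on replicate 6, where the list mean was 13.14 against 13.46 to 13.81 on the others. The 12 endothelial genes were all above background, with a mean of 11.96 ± 0.34. Emcn, an endothelial sialomucin, had 13.11 ± 0.24, and Pecam1, the adhesion molecule CD31, had 12.60 ± 0.18. Each endothelial gene had its lowest value on replicate 6 (7 genes) or replicate 2 (5 genes). The pericyte list, led by Rgs5 at 14.00 ± 0.22, and 6 measured Schwann cell genes, led by the myelin gene Mbp at 14.52 ± 0.15, were above background in full. Of 9 measured adipocyte genes 8 were above background. The adipocyte hormone gene Adipoq had 10.53 ± 0.53, from 776.7 on replicate 6 to 2228 on replicate 5, and Lep, encoding leptin, was below background on all 6 arrays.

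Immune genes differed in level by cell type. All 13 macrophage genes were above background and 3 were among the 1819 brightest: Lyz2, the macrophage lysozyme, at 14.09 ± 0.52, Csf1r, the receptor for the macrophage growth factor, at 13.20 ± 0.28, and the complement gene C1qa at 12.81 ± 0.28. Replicate 3 had the highest value of 10 of the 13 and replicate 5 the lowest of 9. The T and NK cell and B and plasma cell lists, with means of 8.70 and 8.19, had no gene among the 1819 brightest. Of 7 mast cell genes 5 were above background, and of 8 measured neutrophil genes also 5, against 69.1% of all genes. Mast cell genes were led by Hdc, the histamine-forming enzyme, at 10.76 ± 0.26, and neutrophil genes by S100a8 at 10.31 ± 0.59, while Fcer1a, of the mast cell IgE receptor, and Elane, neutrophil elastase, were below background at 5.48 and 5.64. Of 3 measured red blood cell genes only Alas2 was above background, and the haemoglobin gene Hba-a1 was not, with 13.3 to 58.9 intensity units. Ptprc, the CD45 antigen of blood-derived cells, ran from 2116 on replicate 5 to 9950 on replicate 4 with a median of 4663.

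The spread between preparations depended on the level of a gene. The median SD over the 6 arrays was 0.10 for genes between 14 and 16 on the log2 scale, 0.15 between 10 and 12 and 0.35 between 6 and 8. The lists with the widest spread of their means were the skin keratinocyte list with an SD of 1.18, the B and plasma cell list with 1.04, the T and NK cell list with 0.98 and the skeletal muscle list with 0.76. All other lists had an SD of 0.42 or less, and the luminal and basal lists had 0.20 and 0.13. Only 5 of the 10 skin genes were above background, and with a pseudocount of 64 the B and plasma cell list (0.87) came before the skin list (0.86).

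**Figure D4:**
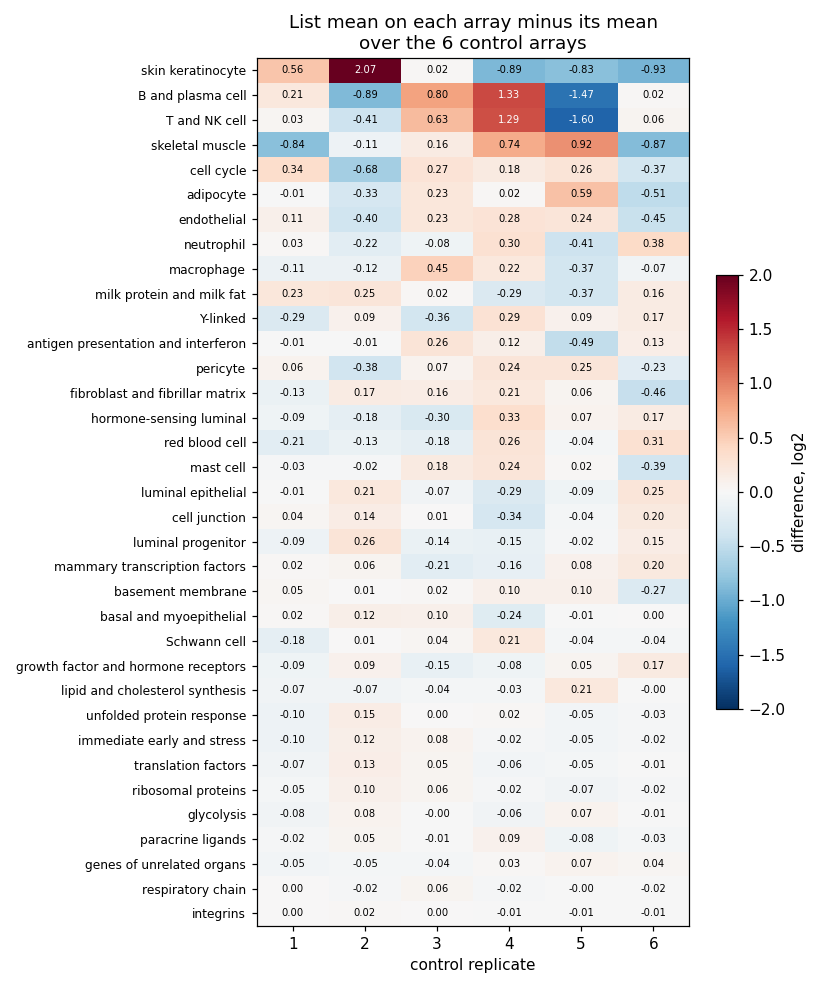
Each cell gives the mean level of a list on 1 control array (x axis, replicate) minus its mean over the 6 arrays, in log2 units (colour), with lists in order of their SD over arrays. The skin list is high on replicate 2, both lymphocyte lists are high on replicate 4 and low on replicate 5, skeletal muscle is high on replicates 4 and 5, and the integrin and respiratory chain lists stay within 0.06 of their means.

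Lymphocyte genes were high or low together from array to array. All 11 measured T and NK cell genes had their highest value on replicate 4 and their lowest on replicate 5, also after quantile normalisation, and the list mean ran from 7.09 to 9.99. Cd3d, a subunit of the T cell receptor complex, read 130.2 on replicate 5, 543.3 to 1470 on 4 arrays and 2710 on replicate 4. Il7r, the interleukin 7 receptor, read 257.3 and 2431 on the same 2 extremes. In the B and plasma cell list 9 of 11 genes were highest on replicate 4 and 9 were lowest on replicate 5. Ms4a1, the B cell antigen CD20, read 96.1 on replicate 5 and 2655 on replicate 4, a 27.6-fold range. Without replicate 5 the SD of the T and NK cell list was 0.65. The antigen presentation list was also lowest on replicate 5, at 12.03 against 12.50 to 12.77, and 13 of its 15 genes were lowest there.

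Marco, Cd209b and Timd4, immune genes outside these lists, ordered the arrays as the lymphocyte lists did, except that replicate 6 came first. Marco, a scavenger receptor of macrophages in lymphoid tissue, read 4193 on replicate 6 and 3698 on replicate 4. It read 1860 and 1253 on replicates 3 and 1, 154.8 on replicate 2 and 101.5 on replicate 5. Cd209b, a lectin of lymph node and spleen macrophages, read 13603 and 12062 on replicates 6 and 4 and 1004 and 837.0 on replicates 2 and 5. Timd4, a receptor for dying cells on resident macrophages, read 5120, 4546, 556.6 and 505.0 on the same 4 arrays. Cxcl13, the chemokine that attracts B cells to follicles, instead peaked on replicate 4 at 7644 and was lowest on replicate 5 at 421.6. It ordered all 6 arrays as the B and plasma cell list did. None of these 4 genes was in the macrophage list, whose own mean was highest on replicate 3. Their part in the spread of the lymphocyte lists was not tested.

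Skin genes set replicate 2 apart. All 10 skin keratinocyte genes were highest there, and the list mean was 9.10 against 6.10 to 7.59 on the others. Krt10, a keratin of the upper epidermis, read 3336 on replicate 2, 2058 on replicate 1 and 617.6 to 1074 on the rest. Lor, loricrin of the cornified envelope, read 1911 on replicate 2 and 125.4 to 563.3 on the others. Flg, filaggrin, read 498.0 on replicate 2 and 1.8 to 22.3 on the others, all below background. Without replicate 2 the SD of the list was 0.67, and it was then the fourth in order. Skeletal muscle genes followed a different order, with 10 of 12 highest on replicate 5. Acta1, skeletal actin, read 5589 and 4319 on replicates 5 and 4 and 838.9 and 1129 on replicates 6 and 1, with 2765 and 3355 between.

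The 30 most variable genes at or above background showed these patterns too, in part through the same genes. They included 3 genes of the skin keratinocyte list, 2 of the T and NK cell list and 3 of the B and plasma cell list. Marco, Cd209b, Timd4 and Cxcl13 were among them as well. Grouped after their names were seen, 17 of the 30 were immune cell genes, 8 were genes of skin or other stratified epithelium and 5 were others. Of the 17 immune genes 12 were highest on replicate 4 and 16 lowest on replicate 5, and of the 8 epithelial genes 7 were highest on replicate 2. For Zap70, a T cell kinase, the probe sets disagreed: the brightest was highest on replicate 2, and the other 2 were highest on replicate 4 and lowest on replicate 5. Aoc1, a diamine oxidase, had the largest SD, 2.26, with 1348 and 771.9 intensity units on replicates 4 and 5 and 4.8 to 83.4, below background, on the others. By brightest probe sets, replicates 4 and 5 had the highest Aoc1 and Greb1 and the lowest Csn1s1, Csn2, Csn1s2a and Wap, while their lymphocyte lists lay at opposite ends. Sftpd, a surfactant lectin, read 1219 and 1615 on replicates 1 and 3 and 82.8 to 116.0 on the others. Wfdc12, a secreted protease inhibitor, was high on the same arrays, at 833.1 and 1252 against 87.8 to 202.1. Without replicate 5, 18 of the 30 genes remained among the most variable 30. Over the 100 most variable genes, 59 were highest on replicate 4 and 65 were lowest on replicate 5.

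**Figure D5:**
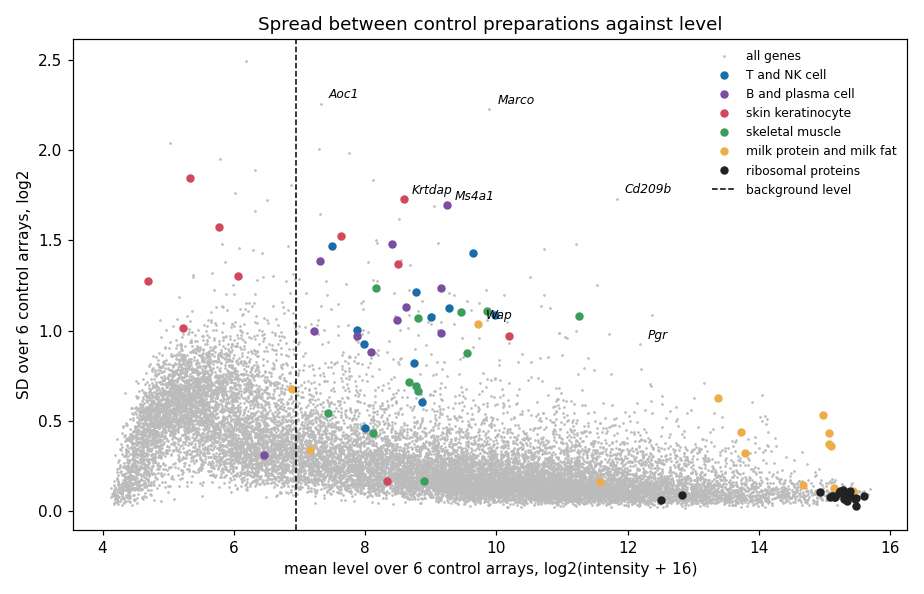
Each grey point is 1 gene, by mean level (x axis, log2(intensity + 16)) and SD over the 6 control arrays (y axis, log2 units), with 6 lists in colour and the background level as a dashed line. Lymphocyte, skin and muscle genes lie mostly above the band of other genes at their level. Ribosomal protein genes lie toward the bright end, with a median SD of 0.08. The casein genes Csn1s1, Csn2 and Csn1s2a lie above the band, while Csn3, with an SD of 0.11, lies within it.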

How the data were processed

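Total RNA was labelled with biotin and hybridised to Affymetrix arrays, per the labels' protocols. The values are linear intensities per probe set as deposited, which the authors made with MAS5, per the submitters' processing notes. The sources used here give no MAS5 version or scaling target. The 2% trimmed mean was 1000 on every control array. Gene symbols came from the annotation of the array platform, checked against RefSeq for GRCm38.p6, which changed 0 symbols, and 932 probe sets with several symbols and 9160 unnamed ones were left out. The mean, SD (n = 6) and order of genes and 37 gene lists were computed in Python 3.11.15 with pandas 2.3.3, and the script was tested on simulated data. The genes named were the 5 markers, the 30 brightest, the 30 with the largest SD at or above background, the 5 steadiest of the 200 brightest, per list the 3 brightest, the dimmest and the most variable, and Arhgap5 and Xist. Csn1s1, Csn2, Glycam1, Lalba, Btn1a1, Plin2, Krt5, Trp63, Kit, Esr1, Gata3, Cdh1, Epcam, Egfr, Erbb2, Mki67, Top2a, Pecam1, Ptprc and other examples outside these were chosen after their values were seen. The members and lists were chosen with earlier results of these data known. The values of 1 gene list are not reported here. Alternatives were pseudocounts of 1 and 64, equal medians, quantile normalisation, the median probe set, no _x_at or _s_at probe sets, a background at the 40th percentile of probe sets and leaving out each array. No test was made. Precision is limited by having 6 arrays.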

Additional observations from a re-analysis of the deposited data

Results flagged for a closer look

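Among 37 list means and 236 named genes, 20 had 1 array far from the other 5, with a gap, relative to the range, above Dixon's 95% critical value. About 1 in 20 such groups exceeds this by chance, and over all 12580 genes at or above background the share was 5.15%, or 648 genes, of which 184 had replicate 2 apart.

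On the log2 scale, 5 list means had an array apart. The basal and myoepithelial list was low on replicate 4, at 11.47. Without Cdh3 it did not stand apart there, at 11.86 against 11.92 to 12.09. The basement membrane list was low on replicate 6, at 11.36. Replicate 5 was low for antigen presentation and interferon, at 12.03, and high for lipid and cholesterol synthesis, at 12.27. The antigen presentation list did not stand apart without Ifit1, at 12.19 against 12.57 to 12.89. After quantile normalisation it did not either, at 12.04 against 12.47 to 12.76. The basement membrane and lipid synthesis lists still stood apart without their most variable members, Lamb1 and Scd2. The respiratory chain list was high on replicate 3, at 14.09 against 14.00 to 14.03. It did not stand apart there after quantile normalisation, when replicate 1 was the highest (14.08, with 14.07 on replicate 3), nor, as deposited, without Uqcrh, when replicate 3 had 14.05.

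Single genes low on 1 array were Glycam1 (13.91), H2-K1 (14.78) and S100a8 (9.15) on replicate 5, Lamb1 (12.11) and Cd163 (8.46) on replicate 6 and Cdh3 (6.02) on replicate 4. Genes high on 1 array were C1qa (13.36) and Pax5 (7.06) on replicate 3 and, on replicate 2, Trib3 (8.75), Lce1a1 (9.43), Flg (9.01) and Sprr1b (7.28). Of these, Lce1a1, Flg and Sprr1b are genes of stratified epithelium. On all 6 arrays Hba-a1 (4.87 on replicate 3), Uty (4.31 on replicate 3) and Erbb4 (5.11 on replicate 4) lay below background.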

How the results depend on the processing

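The count of genes at or above background ran from 12123 with the median probe set to 12892 with Fgb left out of the background genes, a choice added after seeing the data, and from 12496 to 12683 when each array was left out in turn. The luminal list mean ran from 13.30 to 13.45. The basal list mean was 11.01 with the median probe set and 11.22 without _x_at and _s_at probe sets, and 11.69 to 11.76 without single arrays. The SD of the T and NK cell list ran from 0.65 to 1.09 without single arrays and was 0.84 with a pseudocount of 64. Of the brightest 30 genes, 18 were shared without _x_at and _s_at probe sets, 21 with the median probe set and 29 to 30 without single arrays. Of the most variable 30, 14 were shared when the SD was taken relative to genes of like level, also added after seeing the data, and 18 to 28 without single arrays. A single array moved the SD of 14 of the other 36 list means by over 1.5 times: for fibroblast genes it was 0.14 without replicate 6, for cell junctions 0.10 without replicate 4, for antigen presentation 0.11 without replicate 5 and for the basal list 0.06 without replicate 4. The median probe set moved the level of 60 of 236 named genes by more than the spread between arrays, and quantile normalisation moved 0. Of the 35 list means other than the luminal and basal ones, 24 moved with the median probe set and 14 without _x_at and _s_at probe sets. Most list levels given here therefore depend on reading genes by their brightest probe set. Quantile normalisation moved 0 of these 35. No paired analysis was possible because no groups were compared and no test was made.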

Other observations

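Saa1, an acute-phase protein gene, was chosen after its values were seen. It read 2137 intensity units on replicate 2, 1194 and 1276 on replicates 1 and 6 and 257.3 to 487.4 on the others, a level of 9.61 ± 1.11 (SD, n = 6). Replicate 2 was also the highest for Ltf and Krt14. Olfm4, an olfactomedin of mucosal epithelium, read 1215 on replicate 5, 902.4 on replicate 4 and 71.9 to 455.8 on the others. Sprr2f, a small proline-rich protein of stratified epithelium, read 970.4 on replicate 1 and 54.7 on replicate 6. Jchain, the joining chain of secreted antibodies, was highest on replicate 1 at 1285 and lowest on replicate 2 at 186.6, unlike Ms4a1 and Cd79a, which were highest on replicate 4 and lowest on replicate 5.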
